A study of Mus musculus with 6 samples.

Results

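The 34 genes described here make up a chosen module of insulin-like growth factor (IGF) and PI3K-AKT-mTOR signalling, taken by gene symbol from a table of 24444 symbols. They comprise 5 genes for a ligand and its binding proteins, 4 for receptors and adaptors, 4 for PI3K catalytic subunits, 3 for PI3K regulatory subunits, 5 for downstream kinases, 3 for phosphatases, 8 for the mTOR arm and 2 for Foxo factors. All 34 symbols were found, and all 34 passed the filter on low values that left 14249 genes for testing. Polyadenylated RNA had been sequenced from telencephalon, the embryonic forebrain vesicle that gives rise to cortex and basal ganglia, of C57BL/6J mice at E12.5. The groups were 3 libraries labelled Arl13b-/- and 3 libraries labelled wild-type, with the same strain, age and tissue given for both. The Arl13b product is a ciliary member of the ARF-like GTPases, and the series asks how neuronal primary cilia bear on the development of axon tracts. The labels do not name the mutant allele, do not say whether embryos were pooled, and do not say whether the libraries of a group came from separate embryos. Each p-value below is thus set against the spread of these libraries alone, and that spread may be technical.

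IGF1 outside the cell is held by IGF-binding proteins and acts through the receptor tyrosine kinases IGF1R and INSR, whose adaptors IRS1 and IRS2 recruit class I PI3K, a dimer of a catalytic and a regulatory subunit. PI3K makes the membrane lipid PIP3, at which PDPK1 and the mTOR complex that contains RICTOR activate AKT. AKT in turn restrains GSK3, the TSC1-TSC2 complex and the FOXO transcription factors, so that RHEB activates the mTOR complex that contains RPTOR, which phosphorylates S6 kinase and the 4E-binding proteins that control translation. In the developing forebrain the pathway is known for setting progenitor growth and brain size, and IGF1R signalling has been placed at the primary cilium. Messenger RNA levels do not report the phosphorylation through which most of these proteins work.

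The deposited values are counts scaled for depth and put on a log2-like scale on which the variance is stabilised; normalized counts given here are those values with the transformation undone, and tests used the deposited scale. Libraries of the same genotype did not all resemble each other. Across the tested genes, Arl13b-/- 1 and 3 and wild-type 2 and 3 correlated with each other at Pearson r between 0.985 and 0.995, whereas Arl13b-/- 2 correlated with these 4 at 0.702 to 0.722 and wild-type 1 at 0.880 to 0.898. The summed normalized counts of 7 neuronal markers were 133998, 525588 and 130704 in Arl13b-/- 1 to 3, against 228166, 126720 and 128132 in wild-type 1 to 3. The summed counts of 7 markers of dividing cells were 49457, 577 and 58281 in Arl13b-/- 1 to 3, against 11570, 46577 and 50833 in wild-type 1 to 3, so Arl13b-/- 2 and, less far, wild-type 1 were high in neuronal and low in dividing-cell transcripts. Emx1, a gene of the developing cortex, had 145, 2641 and 25.0 normalized counts in Arl13b-/- 1 to 3 and 633, 875 and 1161 in wild-type 1 to 3, so that Arl13b-/- 3 was lowest at this marker of the labelled tissue. Xist and Ddx3y, transcripts of female and male cells, split the 4 similar libraries by genotype, with 16292 and 19017 Xist counts in Arl13b-/- 1 and 3 and 26.5 and 213 in wild-type 2 and 3. Ddx3y had 0 and 1.23 counts in Arl13b-/- 1 and 3 and 1093 and 1258 in wild-type 2 and 3, so sex and genotype cannot be told apart among them. Wild-type 1 had 15101 Xist and 0.537 Ddx3y counts, and Arl13b-/- 2 had 244 and 0. Ddx3y was thus near 0 in each Arl13b-/- library and in wild-type 1, so sex transcripts were not balanced over all 6 libraries either. Because the libraries differed in these ways, results are given for all 6 and, by gene or by role, for the 4 similar libraries as the alternative. Arl13b itself had 492, 532 and 564 normalized counts in Arl13b-/- libraries and 661, 553 and 560.0 in wild-type libraries, which overlap, with a difference of −0.14 ± 0.20 (SE, n = 3 each; adjusted p = 0.990). The table holds gene totals, so this value does not show whether the labelled mutation is present. Estimated depth was 27600000 to 51700000 reads per library.

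Across all 6 libraries, 0 of the 34 genes passed limma's test at an adjusted p of 0.05, in either direction, and 0 of all 14249 genes passed (0%). Without adjustment, 0 of 34 lay under 0.05, against 163 genes or 1.14% of all genes. The members' adjusted p-values were 0.990 to 0.997. The differences, given here as Arl13b-/- minus wild-type on the variance-stabilised log2 scale, ran from −0.66 to 0.62, with 13 above 0 and 21 below. Their median was −0.14, beside 0.0026 for all genes, and the median size was 0.27, beside 0.23 for all genes. The median standard error of a member was 0.34 log2 units, and that of all genes was 0.35, so differences of the size seen were not detectable with this spread between libraries.

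With the 4 similar libraries, 2 of each genotype, 0 of the 34 genes passed at an adjusted p of 0.05, while 36 genes or 0.253% of all genes did. Without adjustment, 5 of 34 (14.7%) lay under 0.05, namely Igfbp3, Irs2 and Pik3r3 above wild-type and Igfbp5 and Irs1 below it, and the share over all genes was 14.4%. The members' differences ran from −0.35 to 0.81 with a median of 0.0059, beside 0.023 for all genes, and their median size was 0.072, beside 0.079. The groups of 2 did not overlap for 14 of 34 members (41.2%) and for 47.5% of all genes, so neither count set the module apart from its background. The smallest adjusted p of a member was 0.0614, for Igfbp3.

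**Figure D1:**
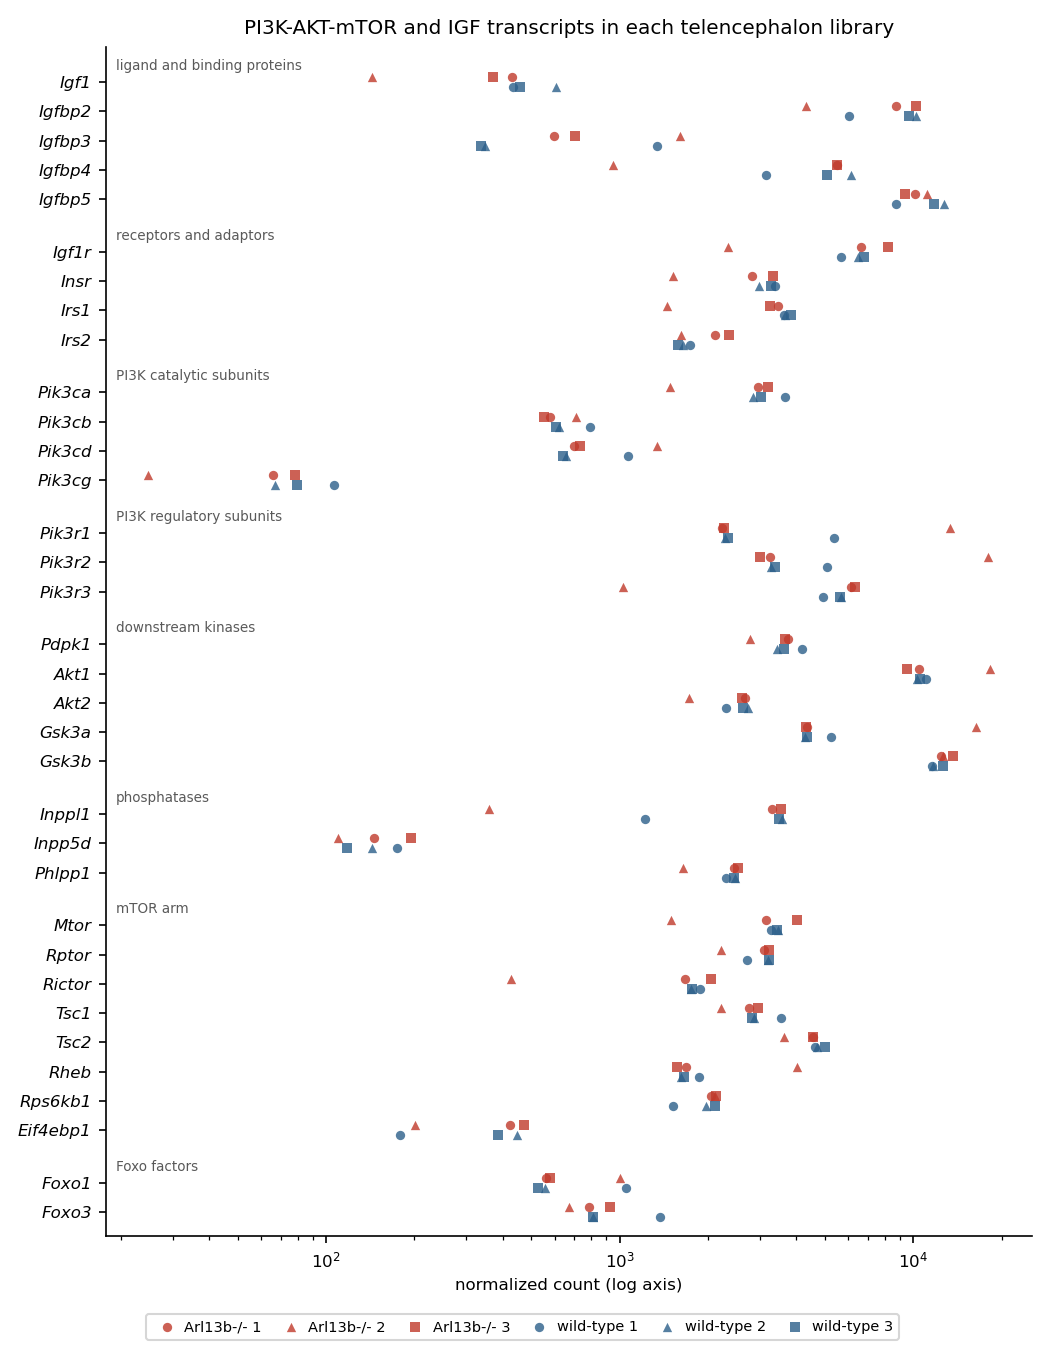
Normalized count of each of the 34 genes in each library on a log axis, with Arl13b-/- libraries in red above wild-type libraries in blue and symbols for the library number. For most genes Arl13b-/- 1 and 3 and wild-type 2 and 3 lie close together, and Arl13b-/- 2 lies away from them, as for Pik3r1 with 13381 counts in that library.

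**Figure D2:**
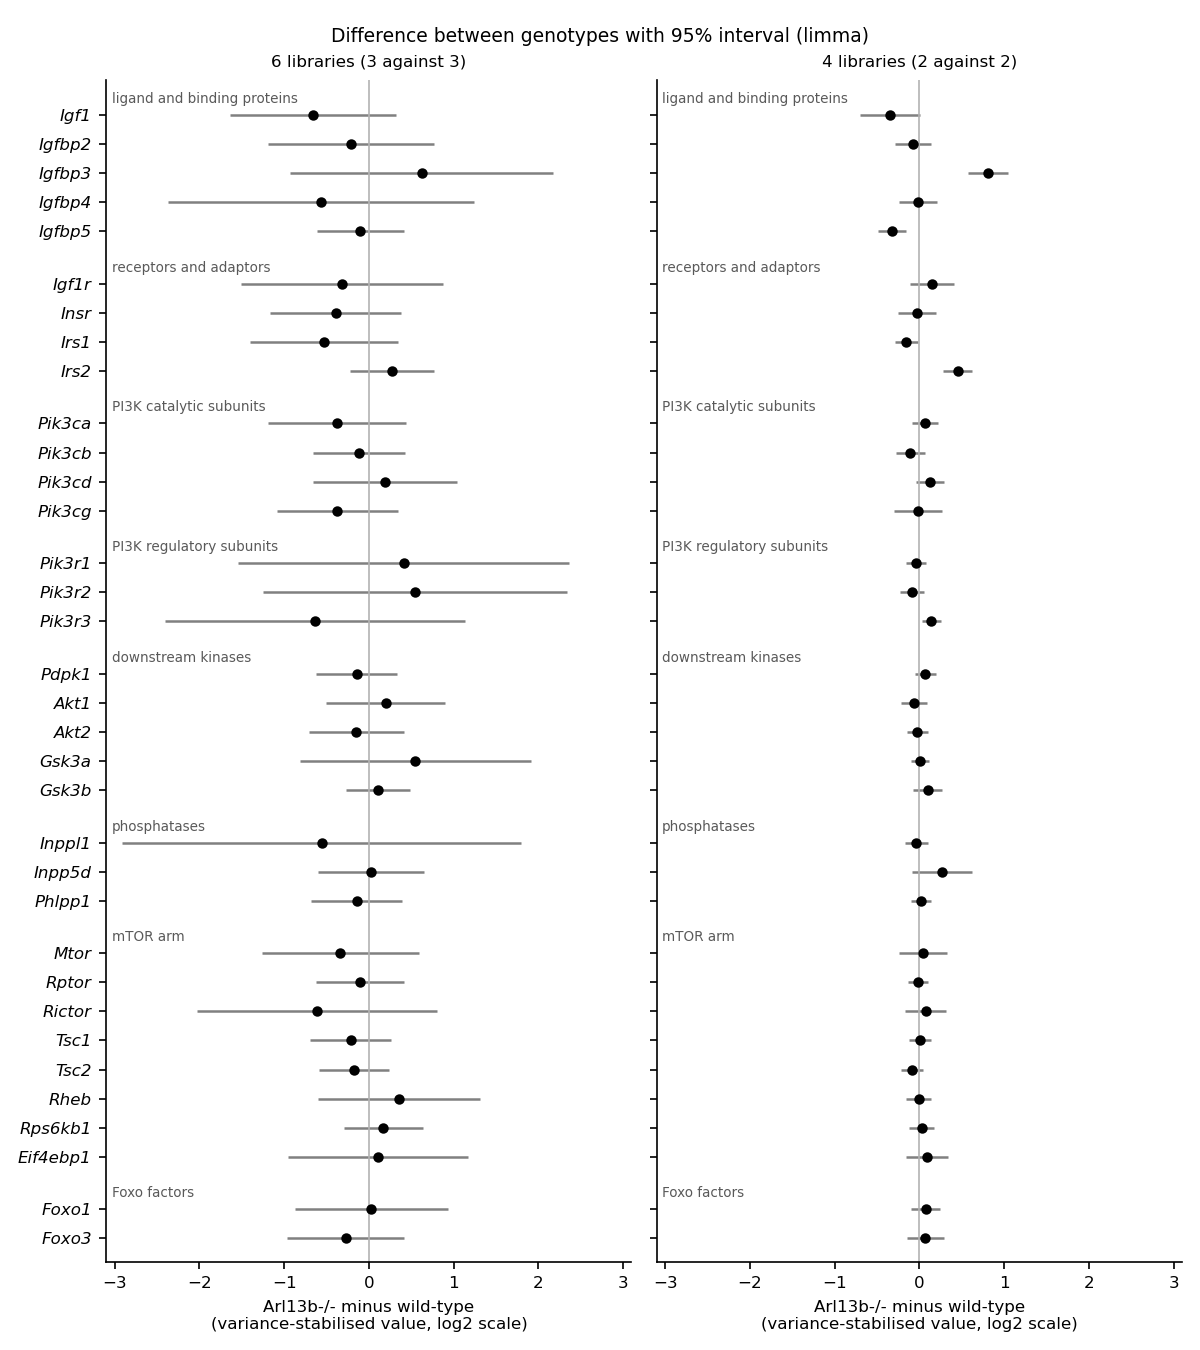
Difference between genotypes for each gene (Arl13b-/- minus wild-type, variance-stabilised value on a log2 scale) with its 95% interval from limma, for 6 libraries on the left and 4 on the right. On the left every interval spans 0, and on the right those of Igfbp3, Irs2 and Pik3r3 lie above 0 and those of Igfbp5 and Irs1 below it, before adjustment over all genes.

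The promoters of Igfbp3, Irs2 and Igfbp5 are shown because these members had the 3 smallest adjusted p-values in the comparison of 4 libraries. Each is the RefSeq window of 250 bases before to 50 bases after the annotated start, on the minus strand of GRCm38.p6, written 5′ to 3′, at chr11:7213874-7214173 for Igfbp3, chr8:11008880-11009179 for Irs2 and chr1:72874816-72875115 for Igfbp5. Capitals mark ACGTG and GCGTG, both forms of the core bound by hypoxia-inducible factors, and their reverse complements CACGT and CACGC.
Igfbp3: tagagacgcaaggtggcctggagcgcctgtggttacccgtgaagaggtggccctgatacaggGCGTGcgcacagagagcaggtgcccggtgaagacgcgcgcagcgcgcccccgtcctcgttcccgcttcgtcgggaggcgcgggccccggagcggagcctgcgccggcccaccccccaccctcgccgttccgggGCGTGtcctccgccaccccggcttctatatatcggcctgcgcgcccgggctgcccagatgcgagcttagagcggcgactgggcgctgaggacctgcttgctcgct
Irs2: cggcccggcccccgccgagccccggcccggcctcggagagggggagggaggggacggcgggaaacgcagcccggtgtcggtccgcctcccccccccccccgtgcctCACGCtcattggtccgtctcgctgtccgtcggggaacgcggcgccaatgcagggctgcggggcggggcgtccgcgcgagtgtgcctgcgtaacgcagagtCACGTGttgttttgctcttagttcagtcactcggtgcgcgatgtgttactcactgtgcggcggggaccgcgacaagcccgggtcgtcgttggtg
Igfbp5: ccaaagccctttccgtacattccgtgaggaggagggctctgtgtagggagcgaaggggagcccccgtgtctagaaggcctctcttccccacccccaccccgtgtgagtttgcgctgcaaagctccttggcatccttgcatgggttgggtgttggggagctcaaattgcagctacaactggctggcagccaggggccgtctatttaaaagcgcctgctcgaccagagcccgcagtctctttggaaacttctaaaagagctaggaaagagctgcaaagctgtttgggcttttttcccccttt
The Igfbp3 window held 2 copies of GCGTG, beginning 188 and 55 bases before the start. The Irs2 window held CACGC 144 bases before the start and a palindrome 44 bases before it, in which ACGTG and CACGT overlap. The Igfbp5 window held no form of the core, and the 3 windows held no GTAAACA, the motif of Foxo factors, or its reverse complement TGTTTAC. On both strands of all 32851 promoter windows, ACGTG was found in 19.6%, GCGTG in 32.4% and GTAAACA in 3.65%. The 32 members with an entry (Insr and Eif4ebp1 had none) had 45 windows, of which 8 (17.8%) held ACGTG, 26 (57.8%) held GCGTG and 2 (4.44%), of Akt1 and Pik3cg, held GTAAACA. These 45 windows had a median GC content of 60.3%, beside 52.7% over all windows, and the part of base content in these shares was not tested. These matches describe letters in a window and are not binding sites.

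Among the ligand and its binding proteins, Igf1 was lower in each Arl13b-/- library than in any wild-type library, and Igfbp3 was higher in the mutant libraries once the 2 dissimilar libraries were set aside, without either passing the adjusted test. Igf1, which encodes the growth factor, had 430.5, 143 and 371 normalized counts in Arl13b-/- 1 to 3, against 435, 608 and 458 in wild-type 1 to 3. The groups did not overlap, but the nearest libraries, 430.5 in Arl13b-/- 1 and 435 in wild-type 1, were almost equal. The difference was −0.66 ± 0.40 (SE, n = 3 each; 95% interval −1.64 to 0.32; limma with Benjamini-Hochberg adjustment, adjusted p = 0.990), the largest in size of the module. With 4 libraries it was −0.35 (95% interval −0.70 to 0.0019; adjusted p = 0.349). Groups of 3 did not overlap for 3 of the 34 members (8.82%), Igf1, Irs1 and Tsc2, all with Arl13b-/- below wild-type. Over all genes 8.26% did not overlap in either direction, and 3.59% did not overlap with Arl13b-/- below.

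Igfbp3, which encodes the main IGF carrier of serum, had 597, 1607 and 705 normalized counts in Arl13b-/- 1 to 3, against 1344, 347 and 336 in wild-type 1 to 3. The 2 highest libraries were the 2 dissimilar ones, 1 of each genotype, so the groups of 3 overlapped and the difference was 0.62 ± 0.63 (SE, n = 3 each; adjusted p = 0.990). Among the other 4, both Arl13b-/- libraries lay above both wild-type libraries, with a mean count 1.90 times that of wild-type and a difference of 0.81 (95% interval 0.57 to 1.05; n = 2 each; limma with Benjamini-Hochberg adjustment, adjusted p = 0.0614). Robust moderation, under which 0.688% of all genes passed, moved that adjusted p to 0.0343, and leaving out Arl13b-/- 1, so that Arl13b-/- 3, the library lowest in Emx1, stood alone, moved it to 0.00676, with 5.09% of all genes passing. Leaving out Arl13b-/- 3 gave 0.70 with an adjusted p of 0.0586, and leaving out wild-type 2 or 3 gave adjusted p-values of 0.253 and 0.209, so the call depended on the setting while the direction did not in these alternatives.

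Markers of non-neural cell types and of the telencephalon itself also differed among these 4 libraries. The summed counts of 7 endothelial markers were 6827 and 8130 in Arl13b-/- 1 and 3, against 6159 and 6541 in wild-type 2 and 3, with 5 of 7 higher in the mutant. The summed counts of 8 mesenchymal markers were 25263 and 30076 in Arl13b-/- 1 and 3, against 70499 and 34254 in wild-type 2 and 3, with 8 of 8 lower in the mutant. The summed counts of 8 surface ectoderm markers were 569 and 107 in Arl13b-/- 1 and 3, against 3181 and 1364 in wild-type 2 and 3, and Krt14 was at 0 in Arl13b-/- 3. The summed counts of 7 red blood cell markers were 106364 and 292276 in Arl13b-/- 1 and 3, against 58214 and 75352 in wild-type 2 and 3, with 7 of 7 higher in the mutant. In the dissimilar libraries this sum was 115 in Arl13b-/- 2 and 13044 in wild-type 1. Against the mean of the 4 similar libraries, 7 of 7 were lower in Arl13b-/- 2. In wild-type 1, 4 were lower and 3 higher. Hbb-y, 1 of the 7, had 0 counts in Arl13b-/- 2 and 397 in wild-type 1. The summed counts of 10 telencephalon markers were 31966 and 20993 in Arl13b-/- 1 and 3, against 35342 and 44746 in wild-type 2 and 3, with 8 of 10 lower in the mutant. The part of these markers in the values of Igfbp3, Igfbp5 and Igf1 was not tested. In bulk tissue, fewer cells of a type and less RNA per cell cannot be told apart.

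Igfbp5, another secreted IGF carrier, had 10121, 11166 and 9357 normalized counts in Arl13b-/- 1 to 3, against 8724, 12717 and 11732 in wild-type 1 to 3. These groups overlapped through wild-type 1, the lowest of the 6. With 4 libraries both mutant values were below both wild-type values, with a difference of −0.33 (95% interval −0.49 to −0.16; limma with Benjamini-Hochberg adjustment, adjusted p = 0.136). Leaving out 1 of the 4 libraries, which left 1 alone in its group, gave differences of −0.38 to −0.27. Igfbp2, the most abundant binding protein here per kilobase, had 8707, 4323 and 10197 counts in mutant libraries and 6043, 10180.2 and 9702 in wild-type libraries, and the 4 similar libraries overlapped. Igfbp4, which lowers IGF availability until it is cleaved, had 5510.1, 951 and 5506 counts in mutant libraries and 3151, 6111 and 5088 in wild-type libraries. It was low in Arl13b-/- 2 and, less far, in wild-type 1, and its groups overlapped.

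Of the receptors and adaptors, Irs1 lay lower in each mutant library than in any wild-type library, Irs2 lay higher in 2 of the 3 mutant libraries, and neither passed the adjusted test. Irs1, the adaptor that couples both receptors to PI3K, had 3454, 1451 and 3253 normalized counts in Arl13b-/- 1 to 3, against 3613, 3656 and 3831 in wild-type 1 to 3. The groups did not overlap, and Arl13b-/- 2 was far below the rest. The difference was −0.53 ± 0.36 (SE, n = 3 each; 95% interval −1.41 to 0.35; limma with Benjamini-Hochberg adjustment, adjusted p = 0.990), and without the 2 dissimilar libraries it was −0.16 (adjusted p = 0.294). Irs2, the second adaptor, had 2109, 1615 and 2355 counts in Arl13b-/- 1 to 3, against 1730.2, 1640.1 and 1578 in wild-type 1 to 3. Arl13b-/- 1 and 3 were above all 3 wild-type libraries and Arl13b-/- 2 lay among them. The difference was 0.27 ± 0.20 (SE, n = 3 each; adjusted p = 0.990) with 6 libraries and 0.45 (95% interval 0.28 to 0.62; adjusted p = 0.0886) with 4. Weighting the 6 libraries by their estimated precision gave 0.43 with a limma adjusted p of 0.0369, where 0.772% of all genes passed. This call too thus depended on the setting. Leaving out 1 of the 4 libraries, which left 1 alone in its group, gave differences of 0.38 to 0.53.

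Per kilobase of exon, Irs1 made up 53.1%, 38.3% and 48.9% of the summed Irs1 and Irs2 level in Arl13b-/- 1 to 3, against 59.1%, 60.6% and 62.7% in wild-type 1 to 3. The groups did not overlap in this share, which was chosen after the values were seen and is given without a test. The receptors did not show such a split. Igf1r had 6634, 2340.1 and 8225 counts in mutant libraries and 5659.8, 6492 and 6780.1 in wild-type libraries, with the lowest and the highest value both in Arl13b-/-. Insr, the insulin receptor, had 2829, 1524 and 3315 counts in mutant libraries and 3378, 2993 and 3263 in wild-type libraries, and the groups overlapped. The 95% intervals of these 4 genes reached from −1.51 to 0.88 log2 units with 6 libraries and from −0.29 to 0.62 with 4. Igf1r differed by −0.31 (limma, adjusted p = 0.990) with 6 libraries and by 0.15 (adjusted p = 0.557) with 4.

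**Figure D3:**
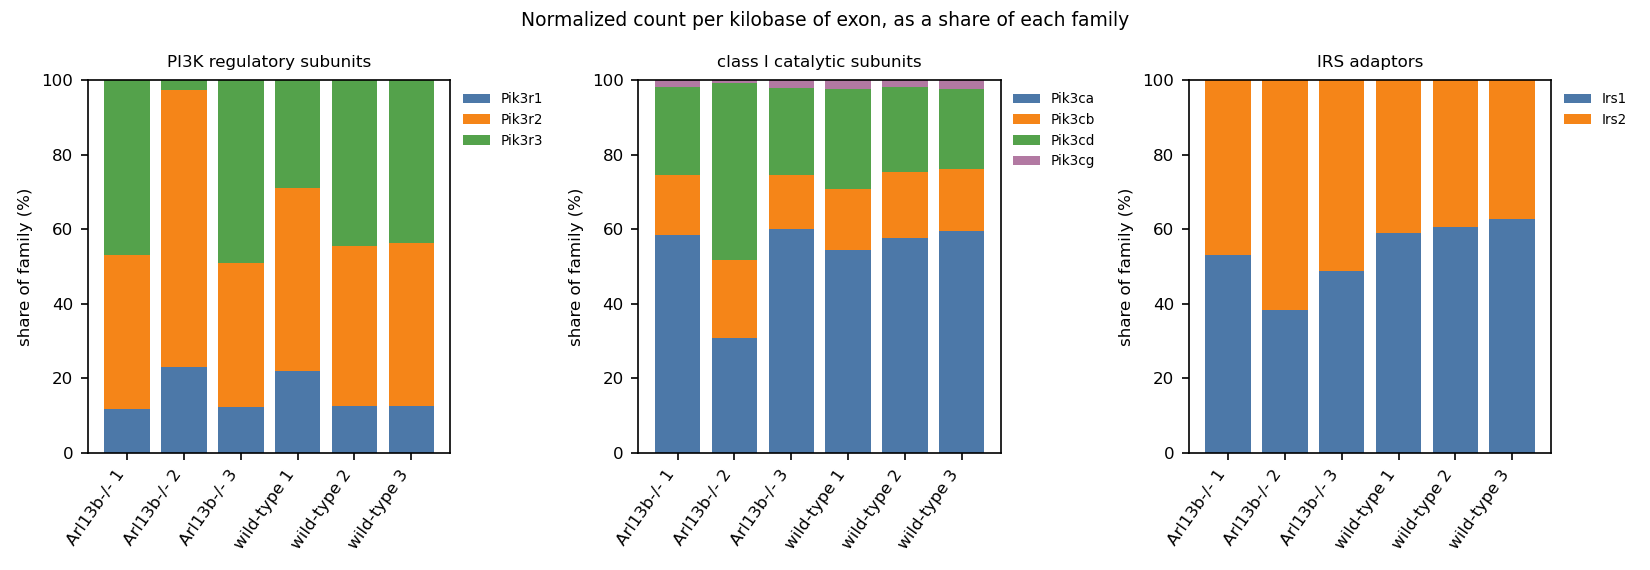
Share of each family's summed normalized count per kilobase of exon, in percent, held by the PI3K regulatory subunits (left), the class I catalytic subunits (middle) and the IRS adaptors (right), with Arl13b-/- libraries left of wild-type libraries. In Arl13b-/- 2, Pik3r3 holds 2.56% of the regulatory family, against 28.8% to 49.2% in the other libraries, and the Irs1 share is at most 53.1% in Arl13b-/- and at least 59.1% in wild-type libraries.

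The PI3K catalytic subunits showed no genotype split in the 6 libraries. Pik3ca, which encodes the broadly used catalytic subunit p110 alpha, had 2956, 1481 and 3198 normalized counts in Arl13b-/- 1 to 3, against 3662, 2851 and 3026 in wild-type 1 to 3, with overlapping groups and a difference of −0.38 ± 0.33 (SE, n = 3 each; adjusted p = 0.990). Pik3cb, for p110 beta, had 552 to 711 counts in mutant and 608 to 790.3 in wild-type libraries. Pik3cd and Pik3cg encode p110 delta and p110 gamma, subunits known chiefly from blood cells. Pik3cd had 697, 1337 and 731 counts in Arl13b-/- 1 to 3 and 1064, 658 and 642 in wild-type 1 to 3, and was thus highest in the 2 dissimilar libraries. Pik3cg had 24.8 to 78.5 counts in mutant and 67.0 to 106 in wild-type libraries and was the lowest member per kilobase. Summed counts of 8 markers of macrophages and microglia were 1508, 193 and 1573 in Arl13b-/- 1 to 3, against 1967, 1460 and 1183 in wild-type 1 to 3, so they and Pik3cg were both lowest in Arl13b-/- 2 while Pik3cd was highest there. With 4 libraries the 95% intervals of the 4 catalytic genes stayed between −0.30 and 0.29 log2 units. By share per kilobase, Pik3ca held 58.5%, 30.9% and 60.0% of the family in Arl13b-/- 1 to 3, against 54.4%, 57.7% and 59.5% in wild-type 1 to 3.

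The regulatory subunits had the largest median standard error of the 8 roles, 0.73 log2 units. Pik3r3, for the subunit p55 gamma, had 6147, 1028 and 6341 normalized counts in Arl13b-/- 1 to 3, against 4924, 5669.8 and 5635 in wild-type 1 to 3. Arl13b-/- 2 was far below all others, and Arl13b-/- 1 and 3 lay above all wild-type libraries. The difference was −0.63 ± 0.72 (SE, n = 3 each; limma, adjusted p = 0.990) with 6 libraries and 0.14 (95% interval 0.030 to 0.25; adjusted p = 0.259) with 4. Leaving out Arl13b-/- 2 alone also turned its sign, to 0.21. Pik3r1, for p85 alpha and its shorter forms, had 2228, 13381 and 2259 counts in mutant libraries and 5362, 2277 and 2334 in wild-type libraries. Pik3r2, for p85 beta, had 3262, 17982 and 2998 counts in mutant libraries and 5069.6, 3276 and 3374 in wild-type libraries. Both were highest in Arl13b-/- 2 and next in wild-type 1, whereas the 4 similar libraries differed by at most 0.065 log2 units for Pik3r1 and 0.17 for Pik3r2. As a result the per-kilobase make-up of the family was 11.8% Pik3r1, 41.3% Pik3r2 and 46.9% Pik3r3 in Arl13b-/- 1 and 12.6%, 43.6% and 43.8% in wild-type 3. In Arl13b-/- 2 it was 23.1%, 74.3% and 2.56%. With 4 libraries the 95% intervals of the 3 genes lay between −0.23 and 0.25 log2 units.

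The downstream kinases differed little among the 4 similar libraries. There all 5 intervals of 95% for the difference between genotypes lay between −0.22 and 0.27 log2 units. Gsk3a, one of the pair of GSK3 kinases that AKT inhibits, had 4349.9, 16379.9 and 4303 normalized counts in Arl13b-/- 1 to 3, against 5248, 4280.2 and 4338 in wild-type 1 to 3. Leaving aside the 2 dissimilar libraries, it had the narrowest range of all members, 0.023 log2 units, and Arl13b-/- 2 held 3.79 times their mean count. The groups overlapped, with a difference of 0.55 ± 0.55 (SE, n = 3 each; adjusted p = 0.990). Gsk3b had 12375 to 13661 counts in mutant and 11555 to 12584 in wild-type libraries and, unlike Gsk3a, did not stand apart in Arl13b-/- 2. Akt1 had 10458, 18232 and 9496 counts in mutant libraries and 11005, 10309 and 10569 in wild-type libraries. Akt2, the form best known for insulin response, had 2666, 1722 and 2607 counts in mutant libraries and 2297, 2725 and 2638 in wild-type libraries. Arl13b-/- 2 was thus the highest library for Akt1 and the lowest for Akt2, and the other mutant values lay near those of wild-type. Pdpk1, the kinase that phosphorylates AKT, had 2777 to 3737 counts in mutant and 3429 to 4168 in wild-type libraries.

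Of the phosphatases, Inppl1, which encodes the PIP3 5-phosphatase SHIP2, varied most between libraries. It had 3313, 357 and 3551 normalized counts in Arl13b-/- 1 to 3, against 1215, 3565 and 3484 in wild-type 1 to 3, with Arl13b-/- 2 lowest and wild-type 1 next. The difference of −0.56 ± 0.95 (SE, n = 3 each; adjusted p = 0.990) had a 95% interval from −2.91 to 1.79, the widest of the module, whereas the 4 similar libraries spanned 0.10 log2 units. Inpp5d, for SHIP1 of blood cells, had 110.2 to 195 counts in mutant and 118 to 174 in wild-type libraries. Phlpp1, for a phosphatase that dephosphorylates AKT, had 2441, 1648 and 2530.1 counts in mutant libraries and 2304, 2462 and 2454 in wild-type libraries. Both groups overlapped for these genes, and Phlpp1 spanned 0.050 log2 units in the 4 similar libraries. With 4 libraries the 95% intervals of the 3 phosphatase genes lay between −0.17 and 0.63 log2 units.

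In the mTOR arm, Tsc2 lay slightly lower in every Arl13b-/- library and the other 7 genes overlapped between genotypes. Tsc2, for the GTPase-activating subunit that keeps RHEB inactive, had 4549, 3615 and 4566 normalized counts in Arl13b-/- 1 to 3, against 4637, 4687 and 5015 in wild-type 1 to 3. The difference was −0.18 ± 0.17 (SE, n = 3 each; 95% interval −0.59 to 0.24; limma with Benjamini-Hochberg adjustment, adjusted p = 0.990) and −0.088 (adjusted p = 0.505) with 4 libraries. Tsc1, its partner, had 2763, 2218 and 2953 counts in mutant libraries and 3531, 2870.0 and 2819 in wild-type libraries. Rictor, the defining subunit of the mTOR complex that phosphorylates AKT, had 1674, 425 and 2049.7 counts in Arl13b-/- 1 to 3, against 1876, 1749 and 1768 in wild-type 1 to 3. Both its lowest and its highest library were mutant, and the difference was −0.61 ± 0.57 (SE, n = 3 each; adjusted p = 0.990). Mtor, the kinase itself, had 3138, 1497 and 4009.9 counts in mutant libraries and 3267, 3461 and 3442 in wild-type libraries, with the same order as Rictor among the mutant libraries. Rptor, the defining subunit of the other mTOR complex, had 2210.0 to 3236 counts in mutant and 2714 to 3226 in wild-type libraries.

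Rheb, the GTPase that activates mTOR, had 1684, 4022 and 1570.3 normalized counts in mutant libraries and 1862, 1619 and 1655 in wild-type libraries, so Arl13b-/- 2 was high and the rest were close. The targets of mTOR at the end of the arm were not split by genotype. Rps6kb1, for S6 kinase, had 2039 to 2130.0 counts in mutant and 1513 to 2119 in wild-type libraries. Eif4ebp1, for the translational repressor 4E-BP1, had 422, 202 and 471 counts in mutant libraries and 178, 447 and 384 in wild-type libraries, and was thus low in the dissimilar library of each genotype. With 4 libraries the 8 intervals of 95% lay between −0.25 and 0.34 log2 units. A p that misses the threshold does not show equal levels. The intervals given for each role rest on 4 libraries kept for their likeness, among which sex and genotype cannot be told apart. They describe these libraries and do not bound the difference between the genotypes.

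The Foxo factors, which enter the nucleus when AKT is inactive, had no genotype split over 6 libraries. Foxo3 had 789, 669.6 and 929 normalized counts in Arl13b-/- 1 to 3, against 1367, 813 and 814 in wild-type 1 to 3, with overlapping groups and a difference of −0.27 ± 0.28 (SE, n = 3 each; 95% interval −0.96 to 0.42; adjusted p = 0.990). Foxo1 had 563, 1001 and 580.2 counts in Arl13b-/- 1 to 3, against 1049, 556 and 525 in wild-type 1 to 3, and was highest in the dissimilar library of each genotype. Wild-type 1 was the highest library for both. With 4 libraries both 95% intervals lay between −0.15 and 0.29 log2 units.

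Departures of the 2 dissimilar libraries were about as frequent among the members as among all genes, or less frequent. The 4 similar libraries were kept for their likeness, so departures of the other 2 follow in part from that choice. Arl13b-/- 2 lay at least 1 log2 unit above the mean of the 4 similar libraries for 5 of 34 members (14.7%), against 20.9% of all genes, and at least 1 below it for 9 of 34 (26.5%), against 25.7%. The 5 higher genes were Pik3r1 (2.52), Pik3r2 (2.45), Gsk3a (1.91), Igfbp3 (1.63) and Rheb (1.27), given as departures on the log2 scale. The 9 lower genes were Inppl1 (−3.06), Igfbp4 (−2.46), Pik3r3 (−2.45), Rictor (−1.93), Igf1r (−1.55), Igf1 (−1.35), Irs1 (−1.25), Mtor (−1.19) and Igfbp2 (−1.15). Each role held some of them, from ligand to mTOR complex, except the Foxo factors and the PI3K catalytic subunits. In wild-type 1 the same departure was reached by 2 members above, Igfbp3 (1.38) and Pik3r1 (1.21), which is 5.88% against 12.4% of all genes. It was reached by 2 below, Inppl1 (−1.47) and Eif4ebp1 (−1.03), which is 5.88% against 6.78%. These are the libraries with the highest sums of neuronal and the lowest sums of dividing-cell markers, and the part of that in the departures was not tested.

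**Figure D4:**
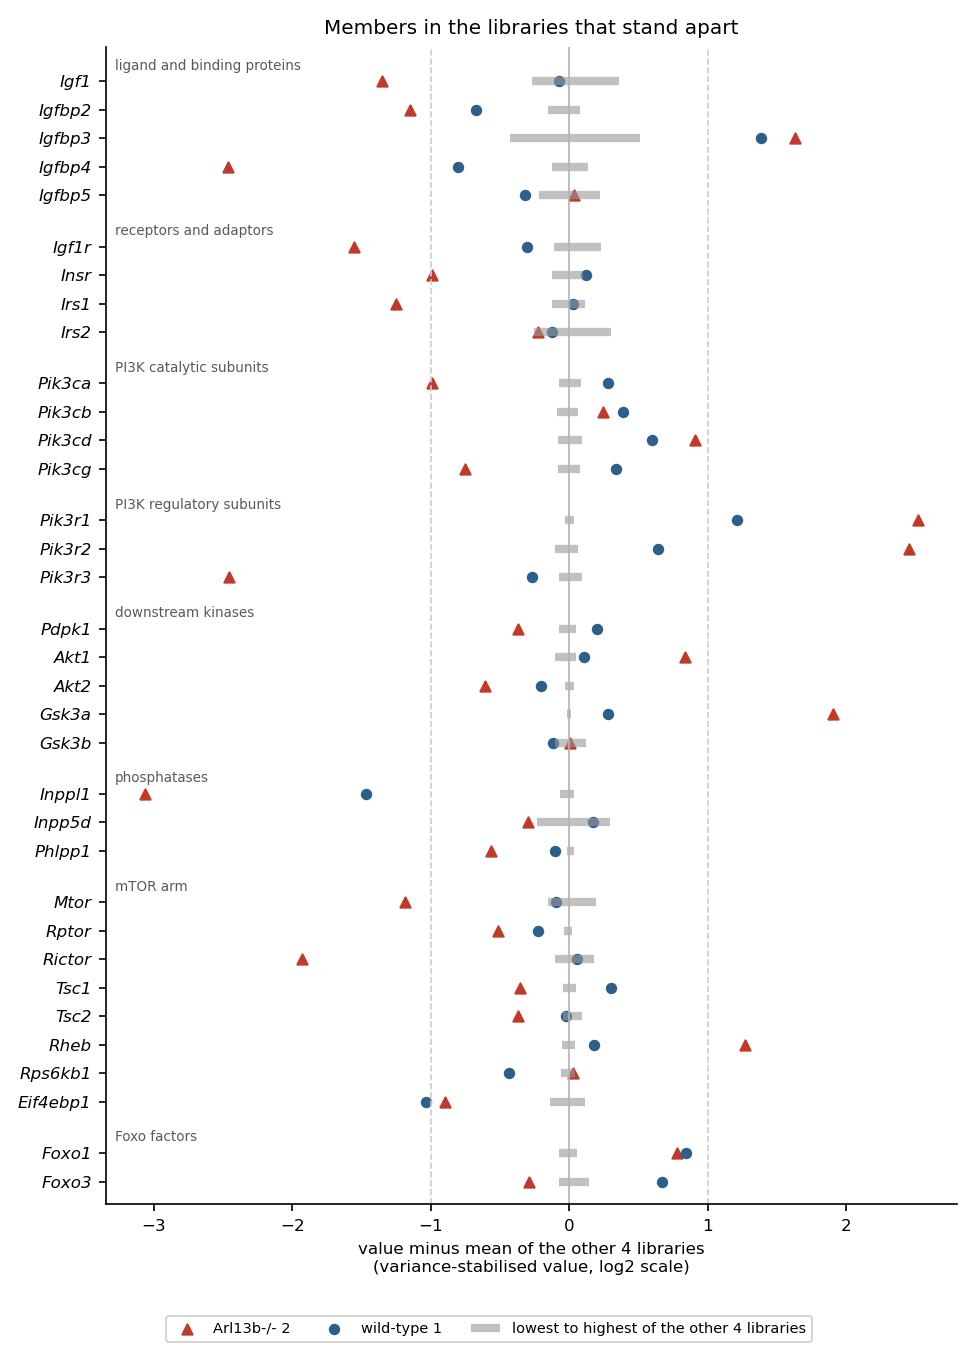
Departure of Arl13b-/- 2 (red triangles) and wild-type 1 (blue circles) from the mean of the 4 similar libraries, on the variance-stabilised log2 scale, with the lowest to highest of those 4 as grey bars and dashed lines at 1 log2 unit. Arl13b-/- 2 runs from −3.06 for Inppl1 to 2.52 for Pik3r1, far outside most grey bars, and wild-type 1 departs less for most genes.

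The 4 similar libraries were kept for their likeness, so small ranges among them follow from that choice. The members' ranges there had a median of 0.17 log2 units, near the 0.18 for all genes. The narrowest were Gsk3a (0.023), Phlpp1 (0.050), Rptor (0.058), Akt2 (0.062) and Pik3r1 (0.065). The widest were Igfbp3 (0.94), Igf1 (0.63), Irs2 (0.56), Inpp5d (0.53) and Igfbp5 (0.44), of which 3 encode secreted proteins. The other secreted members, Igfbp2 and Igfbp4, had ranges of 0.23 and 0.26. As normalized counts per kilobase of exon, averaged over these 4 libraries, the most abundant members were Igfbp2 (6641), Akt1 (3795), Gsk3a (1911) and Igfbp5 (1828). The least abundant were Pik3cg (11.7), Inpp5d (30.2), Igf1 (47.1) and Foxo1 (64.2). These levels depend on the exon length used: with the median transcript length Gsk3b was at 2502 and Gsk3a at 1916, against 1508 and 1911 with all exons. Igfbp4 (2429) and Pdpk1 (1971) then also lay above Gsk3a. With that length Igf1 was at 336, above Igfbp3 (240) and Irs2 (304), so its place among the least abundant holds only with all exons.

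A further list held 58 other genes of the pathway, of which 55 passed the filter, and 0 of 55 passed the adjusted test with 6 or with 4 libraries. Without adjustment, 1 of 55 (1.82%) lay under 0.05 with 6 libraries, against 1.14% of all genes, and 15 of 55 (27.3%) with 4, against 14.4%. Nothing particular to the list is read from these counts. Pdcd4, a translational repressor that S6 kinase marks for degradation, had 1962, 1877 and 1717 normalized counts in Arl13b-/- 1 to 3, against 2332, 2872 and 3034 in wild-type 1 to 3. It was lower in each mutant library than in any wild-type library, with a difference of −0.54 ± 0.18 (SE, n = 3 each; limma with Benjamini-Hochberg adjustment, adjusted p = 0.990) and −0.67 (adjusted p = 0.0568) with 4 libraries. Trib2, a pseudokinase of the Tribbles family, also did not overlap, with 3358 to 3533 counts in mutant and 3794 to 5472 in wild-type libraries and a difference of −0.33 (adjusted p = 0.990). Rragd, for a Rag GTPase that brings mTOR to the lysosome, and Mapkap1, for a subunit of the complex with RICTOR, had the smallest p-values among those above wild-type, with differences of 0.36 and 0.22 (adjusted p = 0.990 for each).

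In the comparison of 4, Igfbp7, a secreted protein related to the IGF carriers, had 594 and 600 normalized counts in Arl13b-/- 1 and 3, against 386 and 400.0 in wild-type 2 and 3. Its difference was 0.53 (limma with Benjamini-Hochberg adjustment, adjusted p = 0.0692), but with 61.3 counts in Arl13b-/- 2 and 799 in wild-type 1 it was −0.59 ± 0.75 (SE, n = 3 each; adjusted p = 0.990) over all 6. Foxo6, a Foxo factor of the forebrain, had 376 and 278 counts in Arl13b-/- 1 and 3, against 606 and 660.3 in wild-type 2 and 3. Its difference was −0.84 (adjusted p = 0.0958), while Arl13b-/- 2 held 4603 and wild-type 1 held 2121 counts. Eif4b, a translation factor that S6 kinase phosphorylates, differed by 0.19 (adjusted p = 0.215).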

How the data were processed

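Poly(A) RNA was prepared with a column kit and sequenced on standard Illumina protocols, per the labels' protocols, from 6 telencephalon libraries grouped by the genotype label. The values, as the authors deposited them in a single table, are normalized counts after a variance-stabilising transformation, on a log2 scale from 5.13 to 18.39. The submitters' processing notes name the build mm9 and the tools DESeq2, DESeq 1.16.1, Salmon 0.9.1, STAR 2.6.0 and CASAVA, but not what each did. Any annotation or filter was not given in the sources used here. Exon lengths and promoter sequences came from a GRCm38 reference and were matched by symbol.

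The lowest value is that of a count of 0, which allowed the transformation to be inverted to normalized counts. Between 70.0% and 79.5% of values under 30 reads lay within 0.05 of whole reads, too few for a count test. Low counts are limited in precision by the estimated depth. Genes with a mean at least 1 above the lowest value were kept. The genotype test was that of limma 3.58.1 under R 4.3.3 (moderated, trend, two-sided), with Benjamini-Hochberg adjustment over all 14249 genes at 0.05, and with 95% intervals. Other pathway genes in the Results were named by the smallest unadjusted p, 2 per direction in each comparison. Gab1, Inpp4b, Sesn1, Igf2bp1, Igf2bp2 and Igf2bp3, given under Other observations, were outside this rule. Both fits were checked on simulated data of known change, in which every library varied independently and to the same degree. Those data held no dissimilar libraries, so the check does not show how the fits behave with the libraries seen here. With 3 libraries per group, an exact two-sided permutation test cannot go below 0.1, and only limma is given. The comparison of 4 libraries is a stated alternative chosen because the other 2 stood apart. The members, lists and tests were chosen with earlier results of these data known. Alternatives were filters, scalings, moderation, library weights estimated gene by gene, a replicate block and leaving out each library. Of the 10 telencephalon markers, a level of its own is given for Emx1, and the single levels of the others are not reported here.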

Additional observations from a re-analysis of the deposited data

How the results depend on the processing

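The spread between libraries limits all comparisons: the call of 0 genes with 6 libraries moved to 3 without a filter, 110 with library weights, 36 with 4 libraries and 0 to 4 when 1 library was left out (4 without wild-type 1). Members past the threshold numbered 0 throughout, except 1 (Irs2) with weights, and other pathway genes 0 except 1 with weights. With 4 libraries, 36 genes moved to 7 without the trend, 98 with robust moderation and 6 to 725 when 1 library was left out (725 without Arl13b-/- 1, 78 without Arl13b-/- 3, 6 without wild-type 2 and 17 without wild-type 3). Members moved from 0 to 1 with robust moderation and 0 to 4 with 1 library out, and other pathway genes to 2 and 0 to 7. Pik3cg and Inpp5d did not reach the stricter filter. A library left alone in its group is assumed to vary like the rest. No direction reversed among the 11 genes followed in the comparison of 4.

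With 6 libraries, these differences reversed sign with 4 libraries: Igf1r 0.15, Pik3ca 0.064, Pik3r1 −0.038, Pik3r2 −0.086, Pik3r3 0.14, Pdpk1 0.071, Akt1 −0.066, Phlpp1 0.015, Mtor 0.039, Rictor 0.073, Tsc1 0.0060, Rheb −0.0096, Foxo3 0.069 and Igfbp7 0.53. Library weights reversed Igf1r to 0.12, Pik3ca to 0.048, Pik3r1 to −0.044, Pik3r2 to −0.072, Pik3r3 to 0.13, Pdpk1 to 0.071, Akt1 to −0.050, Phlpp1 to 0.0094, Mtor to 0.00041, Rictor to 0.037, Foxo3 to 0.039 and Igfbp7 to 0.51. Quantile normalization reversed Akt1 to −0.050, Gsk3b to −0.11 and Eif4b to −0.11. The first 2 settings give little or no weight to both Arl13b-/- 2 and wild-type 1, with library weights of 0.026 and 0.10. Leaving out Arl13b-/- 2 alone reversed 18 differences, and leaving out any other single library reversed 2 or 3. The cause was not tested. With 1 library left out, the ranges that crossed 0 were Igfbp2 −0.45 to 0.16, Igfbp4 −0.97 to 0.25, Igfbp5 −0.26 to 0.010, Igf1r −0.66 to 0.23, Pik3cd −0.096 to 0.40, Pik3r1 −0.44 to 0.84, Pik3r2 −0.29 to 0.99, Pik3r3 −1.07 to 0.21, Akt1 −0.092 to 0.38, Akt2 −0.26 to 0.049, Gsk3a −0.088 to 0.87, Inppl1 −1.09 to 0.46, Inpp5d −0.13 to 0.17, Phlpp1 −0.25 to 0.046, Mtor −0.63 to 0.065, Rptor −0.21 to 0.062, Rictor −1.01 to 0.043, Rheb −0.069 to 0.59, Eif4ebp1 −0.22 to 0.42, Foxo1 −0.22 to 0.32, Foxo6 −1.39 to 0.49 and Igfbp7 −1.005 to 0.23. Igf1, Irs1, Irs2, Tsc2 and Igfbp3 kept their sign in each setting run. In the settings followed for all members, Insr, Pik3cb and Pik3cg, for example, also kept theirs. Their differences with 4 libraries were −0.028, −0.11 and −0.014, so a kept sign does not mark a difference between genotypes.

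Samples that share a replicate number deviated from their group means with correlations of −0.71, −0.71 and 0.62 across genes. Arl13b-/- 2 and wild-type 1, which carry different numbers, gave 0.71. The signs followed these dissimilar libraries, so they cannot decide whether the numbers pair the samples. With a replicate block 0 genes, 0 members and 0 other pathway genes passed.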

Other observations

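Of the 55 other pathway genes, 5 (9.09%) had groups of 3 that did not overlap, Gab1, Inpp4b, Sesn1, Pdcd4 and Trib2, and in all 5 Arl13b-/- lay below wild-type. Over all genes 8.26% did not overlap in either direction and 3.59% with Arl13b-/- below. Gab1 encodes a docking protein that, like IRS1, recruits PI3K to receptors. It had 1573, 351 and 1575 normalized counts in Arl13b-/- 1 to 3, against 1805, 1940.1 and 2007 in wild-type 1 to 3, with a difference of −0.93 ± 0.57 (SE, n = 3 each; limma, adjusted p = 0.990). Sesn1, for a leucine-binding restraint on mTOR, had 753, 856 and 819 counts in Arl13b-/- 1 to 3, against 1531, 914 and 961 in wild-type 1 to 3. Inpp4b, for a phosphatase of PI3K products, had 67.6, 65.8 and 46.9 counts in Arl13b-/- 1 to 3, against 215, 73.6 and 70.5 in wild-type 1 to 3. These genes were picked after their values were seen, and none of the 5 passed the adjusted test.

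The RNA-binding proteins Igf2bp1, Igf2bp2 and Igf2bp3, which bind IGF transcripts in embryonic tissue, were the lowest in Arl13b-/- 2 and next in wild-type 1. Igf2bp1 had 8536, 103 and 10442 normalized counts in Arl13b-/- 1 to 3, against 1174, 7122 and 7595 in wild-type 1 to 3. Igf2bp3 had 5889, 221 and 6828 counts in Arl13b-/- 1 to 3, against 1264, 5416 and 5497 in wild-type 1 to 3. The summed markers of dividing cells were also lowest in Arl13b-/- 2 and next in wild-type 1, and their part in these values was not tested.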
